A study of Homo sapiens with 12 samples.

Results

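The 3' ends of the mitochondrial messengers for the complex I subunits MT-ND1, MT-ND2, MT-ND3, MT-ND4L, MT-ND4 and MT-ND5 were followed through all 12 libraries of a study of the RNA-binding protein Staufen1 (STAU1). Their sites were chosen by position, as all poly(A) sites on the plus strand of the mitochondrial chromosome (hg19) between positions 3300 and 4290 (MT-ND1), 4460 and 5530 (MT-ND2), 10050 and 10430 (MT-ND3), 10465 and 12165 (MT-ND4L with MT-ND4) and 12330 and 14170 (MT-ND5) that had at least 10 reads in any library of their table. This gave 150 of 640413 sites in the pull-down table and 134 of 189010 sites in the fraction table, against 801 and 602 sites on the whole mitochondrial plus strand. At the threshold, site 12854 in MT-ND5 reached 10 reads in its highest pull-down library and was kept, and site 13415 in the same gene reached 9 and was left out. The 16 sites left out of the pull-down table held 139 reads in all, and the 21 left out of the fraction table held 212.

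All cells were HEK293T, a human embryonic kidney line, and 3'READS+ was used, which captures polyadenylated RNA and reads its last stretch, so that each read counts 1 RNA 3' end. The pull-downs were made from a single STAU1-KO line (C8, from Cas9 double nicking) after transient transfection with STAU1-FLAG or with FLAG-GFP, an unrelated tagged protein; the groups were STAU1 IP and GFP IP (anti-FLAG pull-down), each with its input lysate, in 2 replicates per group. By genotype all 8 of these libraries lack the cell's own STAU1, and the tagged protein came from a transfected gene. The fractions were polysomal and cytoplasmic RNA, each from the knockout line and from the isogenic wild-type line C9, in 1 library apiece. Neither the level of the STAU1 transcript nor the identity of the cells by marker genes was analysed here, because the sites carry no gene name.

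Complex I is the NADH dehydrogenase that feeds electrons into the respiratory chain, and its mitochondrial genes encode the core of its membrane arm, which pumps protons. The plus strand of the mitochondrial chromosome is transcribed as one long precursor from which the messengers are cut, mostly at the transfer RNAs between them, and each messenger then receives a short poly(A) tail. For MT-ND1, MT-ND2, MT-ND3 and MT-ND4 the tail also completes the stop codon, so an intact messenger ends at its last coding base. MT-ND4L and MT-ND4 share a single messenger with overlapping reading frames, and the messenger of MT-ND5 continues past its stop codon into a long untranslated stretch that lies antisense to MT-ND6. These messengers are translated inside mitochondria by mitochondrial ribosomes.

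The pull-down libraries held 6212606 and 5727812 reads (STAU1 IP), 1291888 and 1245270 reads (GFP IP), 5567893 and 9655646 reads (STAU1 input) and 7636541 and 8932299 reads (GFP input), and the fraction libraries 2799226 to 3483937 reads. The GFP pull-downs were the shallowest, so low counts there carry the largest counting error. Mitochondrial RNA of both strands took 5.35 ± 0.27% of the reads in the pull-downs and 10.4 ± 0.50% in the inputs (SD, n = 4 each; exact permutation test, two-sided p = 0.0286, the smallest that 4 against 4 libraries allow). A lower share of mitochondrial RNA and a lower level of each mitochondrial messenger cannot be told apart in these libraries.

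Reads at the coding ends differed between the genes. In MT-ND2, MT-ND3 and MT-ND4, which encode membrane-arm subunits, a single dominant site lay exactly at the last coding base, at chrM:5512, chrM:10405 and chrM:12138. Site 12138, the end of the joint MT-ND4L and MT-ND4 messenger, was the most abundant with 232459 reads over the 8 pull-down and input libraries, against 38470 reads at site 5512 and 21695 at site 10405. The messenger of MT-ND5 continues past its stop codon, so its coding end is not the end of the messenger. The single site within 30 nt of that coding end (chrM:14161, 12 nt past the last coding base) had 264 reads, of 20468 in the window. A site downstream of the window, chrM:14746, which is no member, had 2007 and 1504 reads in STAU1 IP and 996 and 1605 in STAU1 input. It had 128 and 150 reads in GFP IP and 1036 and 1239 in GFP input. Relative to the library totals it was higher in both STAU1 IP libraries than in both STAU1 inputs. In both GFP IP libraries it was lower than in both GFP inputs. It entered neither the sums nor the shares of MT-ND5 given below. Whether it is the end of the MT-ND5 messenger was not tested.

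MT-ND1, another membrane-arm subunit, had no site at all within 30 nt of its coding end in any of the 12 libraries. The nearest upstream site was chrM:4175 in the pull-down table and chrM:4160 in the fraction table, and the first downstream sites were chrM:4328 and chrM:4329. Between 437 and 5309 reads fell inside the MT-ND1 window per pull-down or input library. For counting error alone, a count of 0 at its end allows a share of at most 0.686% of the gene's reads in the library with the fewest MT-ND1 reads. In the library with the most it allows 0.056% (3 counts of the gene's reads). The rule by which sites were made is not known here. Reads that were removed before the counts were made are therefore not covered by this limit. In the fractions the limit was 1.35% and 1.54% in knockout and wild-type polysomes, and 0.102% and 0.110% in knockout and wild-type cytoplasm. All counted reads of MT-ND1 came from internal sites, the largest of which, chrM:3440, lay 132 nt past the start of the coding region. That site had 223 and 272 reads in STAU1 IP and 640 and 1215 in STAU1 input, and 86 and 75 in GFP IP and 680 and 1218 in GFP input. Another internal site of the pull-down table, chrM:3301, lay 7 nt before the MT-ND1 coding region and held 1557 of the 21460 reads of the window. It was called lower with both tags. Below, it is counted with MT-ND1 in the sites called, the internal reads and the 5' segment.

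Internal sites, those farther than 30 nt from a coding end, made up 143 of the 150 members (MT-ND1 25, MT-ND2 17, MT-ND3 9, MT-ND4L with MT-ND4 43, MT-ND5 49). They were spread along the coding regions, with a median spacing of all member sites of 30.0 to 36.0 nt per gene. Neighbouring sites in this table were never closer than 25 nt. The reads were not even among them: the largest internal site held 20.6% of the internal reads of MT-ND1, 15.3% in MT-ND2, 37.7% in MT-ND3, 14.7% in MT-ND4 and 24.7% in MT-ND5. The largest internal site in these genes, chrM:10706, had 7857 reads and lay 235 nt past the start of the MT-ND4L coding region, upstream of the MT-ND4L stop codon. Only 3 sites lay within 30 nt of chrM:10765, the position taken as the MT-ND4L coding end, and the site at that position was the largest. At 55 of the positions the same site was a member in both tables. The positions of all member sites relative to the coding ends are shown in the plot of reads along the genes.

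**Figure D1:**
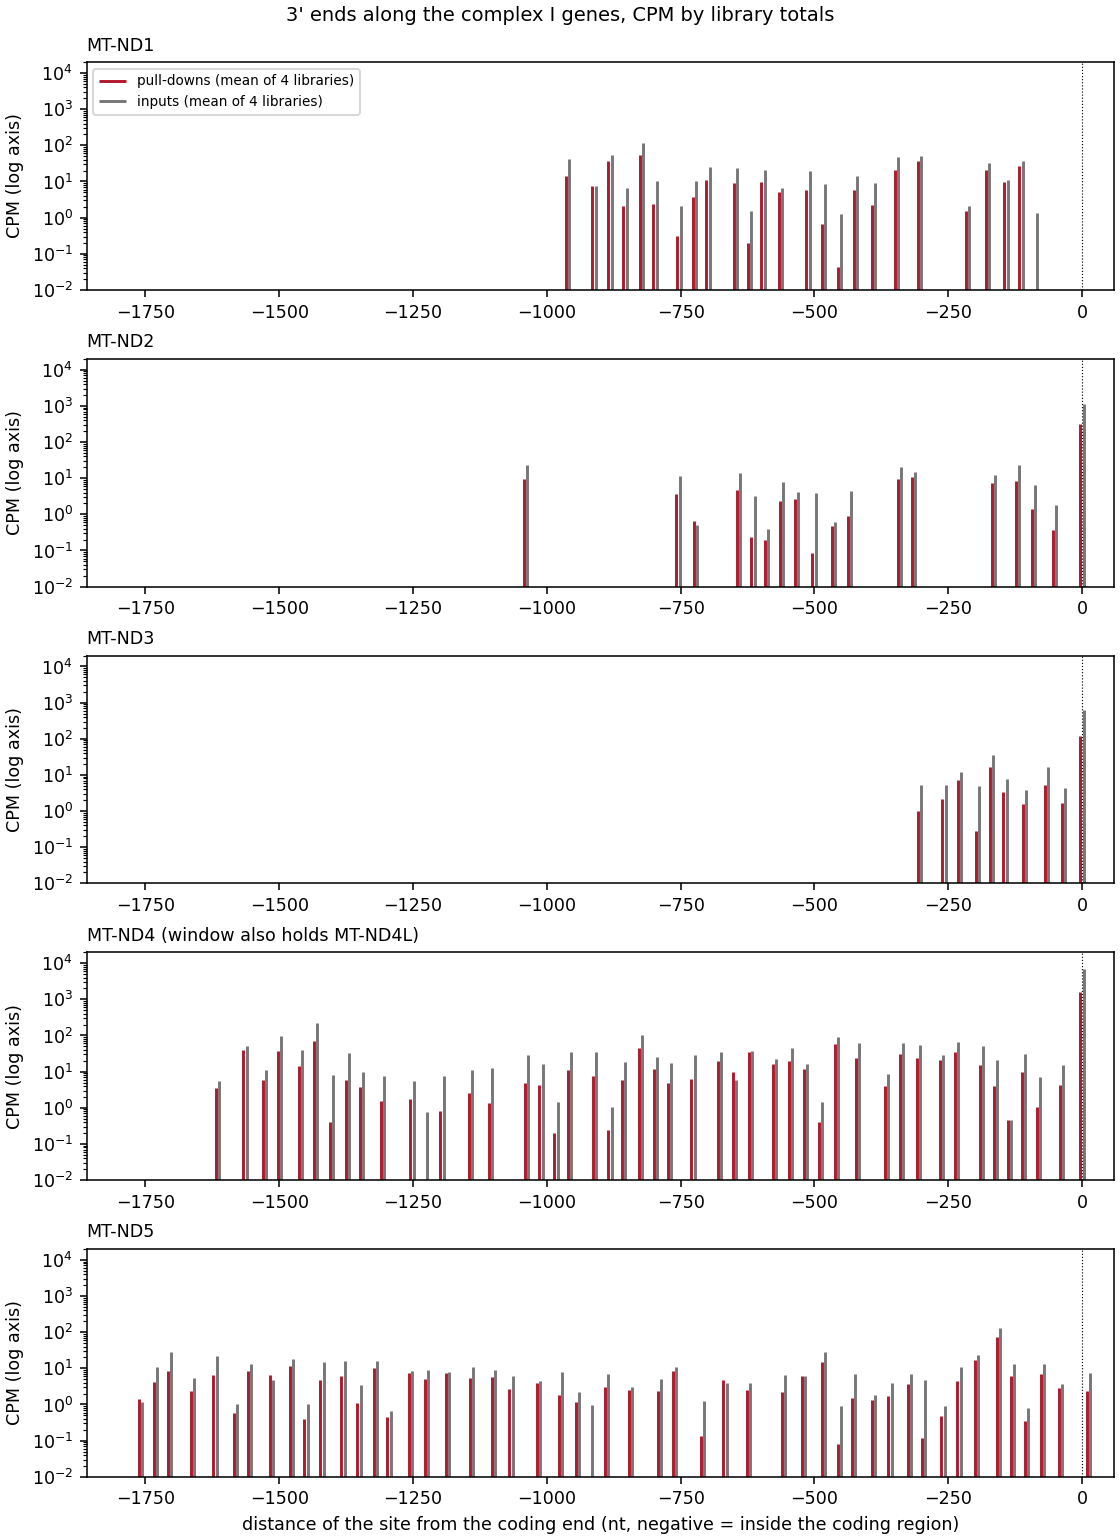
CPM by library totals (log axis, bars drawn from 0.01) at each member site against its distance from the coding end in nt, in 1 panel per gene. Red bars are the mean of the 4 pull-down libraries, grey bars the mean of the 4 inputs. The dominant ends of MT-ND2, MT-ND3 and MT-ND4 stand at distance 0, where MT-ND1 has no site.

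Complex I sites were lower in the STAU1 pull-down than in its input. Of the 150 sites, 135 passed the filter on low counts and were tested, and the 15 others had 15 to 51 reads in all. With edgeR's quasi-likelihood test, adjusted by Benjamini-Hochberg over all 33744 tested sites, 47 were lower in STAU1 IP and 0 were higher, against 2.99% of all sites called lower and 3.06% called higher. The log2 change was below 0 at 127 of the 135 sites, with a median of −1.67, while the median of all tested sites was 0.12. By gene, 11 of 22 sites were called lower in MT-ND1, 5 of 16 in MT-ND2, 3 of 10 in MT-ND3, 23 of 44 in MT-ND4L with MT-ND4 and 5 of 43 in MT-ND5. Without STAU1 IP replicate 1 fewer sites were called lower, here and among all sites, and the 2 medians were −1.69 and 0.05.

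The control pull-down showed the same direction. In GFP IP over GFP input, 24 of the 135 sites were called lower and 0 higher, against 3.99% of all sites called lower and 2.11% called higher, with a median log2 change of −1.43 at complex I sites and −0.16 at all sites. The 24 were 4 of 22 sites in MT-ND1, 1 of 16 in MT-ND2, 2 of 10 in MT-ND3, 16 of 44 in MT-ND4L with MT-ND4 and 1 of 43 in MT-ND5. Most thus lay in MT-ND4L with MT-ND4, and the share called in MT-ND5 was below that of all sites. The number called here varied with single libraries and with scaling. In the same settings fewer were called lower among all sites too, with 751 of 33744 after scaling by totals, against 1348. The counts that follow are for complex I sites. Leaving out GFP IP replicate 1 gave 5 calls, leaving out the second GFP input gave 8 and leaving out the first gave 11, as did scaling by library totals (11). Scaling by totals moved the median of all sites by more than 0.1, to 0.13 in GFP IP over GFP input and 0.26 in STAU1 IP over STAU1 input, and the medians at complex I sites were then −1.13 and −1.53. With scaling by relative log expression the median of all sites was −0.002 in GFP IP over GFP input and that of complex I sites −1.28.

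The dominant ends were lower in both pull-downs. At site 12138 of MT-ND4, the CPM (read counts per library size scaled by TMM, the trimmed mean of M-values, as for all CPM values below) was 1045 and 1131 in STAU1 IP, against 8878 and 6629 in STAU1 input. It was 1538 and 2289 in GFP IP, against 6127 and 8018 in GFP input. Both pull-downs were far below both inputs, and the 2 tags' ranges did not overlap between the pull-downs. The edgeR log2 change was −2.83 ± 0.21 (SE) for STAU1, adjusted p = 2.84e-07, and −1.89 ± 0.20 for GFP, adjusted p = 9.84e-06.

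At site 5512, the end of MT-ND2, the CPM was 168 and 211 in STAU1 IP, against 1214 and 1038 in STAU1 input, and 313 and 442 in GFP IP, against 1343 and 1242 in GFP input. The log2 changes were −2.57 ± 0.20 for STAU1 and −1.78 ± 0.20 for GFP, with edgeR adjusted p = 3.73e-07 and 1.63e-05. At site 10405, the end of MT-ND3, the smallest of these subunits' messengers, the CPM was 62.9 and 102 in STAU1 IP, against 476 and 619 in STAU1 input, and 137 and 141 in GFP IP, against 929 and 723 in GFP input. Here the log2 changes of the tags lay close together, at −2.74 ± 0.24 for STAU1 and −2.57 ± 0.24 for GFP, with edgeR adjusted p = 1.06e-06 and 3.25e-06. At site 14161, near the coding end of MT-ND5, 7 and 16 reads in STAU1 IP stood against 51 and 70 in STAU1 input. In GFP IP 2 and 5 reads stood against 55 and 58 in GFP input. Neither change passed the test there (edgeR adjusted p = 0.126 and 0.390).

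The largest internal sites were lower as well. At site 10706, inside MT-ND4L, the CPM was 60.6 and 51.9 in STAU1 IP, against 227 and 236 in STAU1 input, and 63.6 and 76.5 in GFP IP, against 255 and 233 in GFP input. Its log2 change was −2.04 ± 0.21 for STAU1 and −1.80 ± 0.22 for GFP (edgeR adjusted p = 7.55e-06 and 3.71e-05). At site 3440 of MT-ND1 the log2 change was −1.67 ± 0.26 for STAU1 and −1.15 ± 0.27 for GFP (edgeR adjusted p = 5.75e-04 and 0.0133). The second of these calls was lost without GFP IP replicate 1 or 2, without GFP input replicate 2, or with scaling by totals. At site 13993 of MT-ND5, 156 nt before its stop codon, the log2 change was −1.64 ± 0.26 for STAU1 (edgeR adjusted p = 6.55e-04) and −0.86 ± 0.26 for GFP, which did not pass the test (adjusted p = 0.0603) but passed with a filter of 10 reads in all (0.00384) and without STAU1 IP replicate 1 (0.0202) or 2 (0.0199).

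The most abundant internal sites of MT-ND2 and MT-ND3 gave smaller counts. Site 5392 in MT-ND2 had a CPM of 6.33 and 6.43 in STAU1 IP, against 23.1 and 27.7 in STAU1 input, with a log2 change of −1.99 ± 0.45 (edgeR adjusted p = 0.0101). Site 10236 in MT-ND3 had 16.1 and 8.57 CPM in STAU1 IP, against 39.6 and 27.9 in STAU1 input, with a log2 change of −1.45 ± 0.38 (edgeR adjusted p = 0.0274). Without STAU1 IP replicate 1 the adjusted p of site 5392 was 0.0619. That of site 10236 was 0.205 without STAU1 IP replicate 2 and 0.178 without STAU1 input replicate 1. In GFP IP neither site passed the test (edgeR adjusted p = 0.0949 and 0.0902), but both passed with a filter of 10 reads in all (0.0402 and 0.0189), and site 10236 also without STAU1 IP replicate 1 (0.0478) or 2 (0.0435).

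Among called sites with an average log2 CPM of at least 4, the extremes all lay inside MT-ND4. The lowest log2 change in STAU1 IP was at site 11411, with 1.24 and 3.62 CPM in STAU1 IP and 33.4 and 33.1 in STAU1 input (−3.77 ± 0.51), and the smallest fall was at site 11679, with 33.1 and 41.2 CPM in STAU1 IP and 75.7 and 91.5 in STAU1 input (−1.17 ± 0.26). In GFP IP the lowest was site 11100, with 4.84 and 4.37 CPM in GFP IP and 30.4 and 36.3 in GFP input (−2.85 ± 0.54), and the smallest fall was at site 11903, with 31.1 and 45.9 CPM in GFP IP and 83.1 and 86.1 in GFP input (−1.14 ± 0.31). The last of these calls was weak: it was lost without any 1 of the 4 GFP libraries (edgeR adjusted p = 0.0643 to 0.375), with scaling by relative log expression (0.0527) and by totals (0.124). Site 11100 lost its GFP call without GFP IP replicate 1 (0.0615) or 2 (0.0549), and site 11679 its STAU1 call when STAU1 IP replicate 1 (0.0909) or the second STAU1 input (0.0539) was left out. All of these sites belong to the same messenger, and the SEs were largest where the counts were lowest.

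To take in the low sites as well, the reads of each gene were summed over its end sites and over its internal sites, and both sums entered the same fit in place of the single sites. All 10 sums were lower in the pull-downs for both tags, and 9 of the 10 passed the test for each. For STAU1 the log2 change of the end reads was −2.58 ± 0.20 in MT-ND2, −2.74 ± 0.23 in MT-ND3, −2.94 ± 0.52 in MT-ND4L and −2.85 ± 0.21 in MT-ND4. Internal reads changed by −1.51 ± 0.17 in MT-ND1, −1.98 ± 0.23 in MT-ND2, −1.63 ± 0.29 in MT-ND3, −1.67 ± 0.18 in MT-ND4 and −1.37 ± 0.22 in MT-ND5. The end reads of MT-ND5 were the sum that did not pass (−2.20 ± 0.80 for STAU1 and −1.58 ± 0.88 for GFP, edgeR adjusted p = 0.127 and 0.401).

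For GFP the end reads changed by −1.76 ± 0.20 in MT-ND2, −2.55 ± 0.23 in MT-ND3, −2.27 ± 0.56 in MT-ND4L and −1.86 ± 0.20 in MT-ND4. The internal reads changed by −0.998 ± 0.17 in MT-ND1, −1.15 ± 0.23 in MT-ND2, −1.39 ± 0.30 in MT-ND3, −1.25 ± 0.18 in MT-ND4 and −0.97 ± 0.22 in MT-ND5. Of these GFP calls, 4 depended on single libraries. Without GFP IP replicate 1 the adjusted p was 0.126 for the internal reads of MT-ND2, 0.308 for the MT-ND4L end and 0.262 for the internal reads of MT-ND5, and without GFP IP replicate 2 it was 0.159 for the internal reads of MT-ND3. Leaving out GFP input replicate 2 also ended the calls of the MT-ND4L end (0.126) and of the internal reads of MT-ND5 (0.0556), and these internal reads gave 0.0595 with scaling by totals. The MT-ND4L end gave 0.0890 with ends taken within 15 nt.

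**Figure D2:**
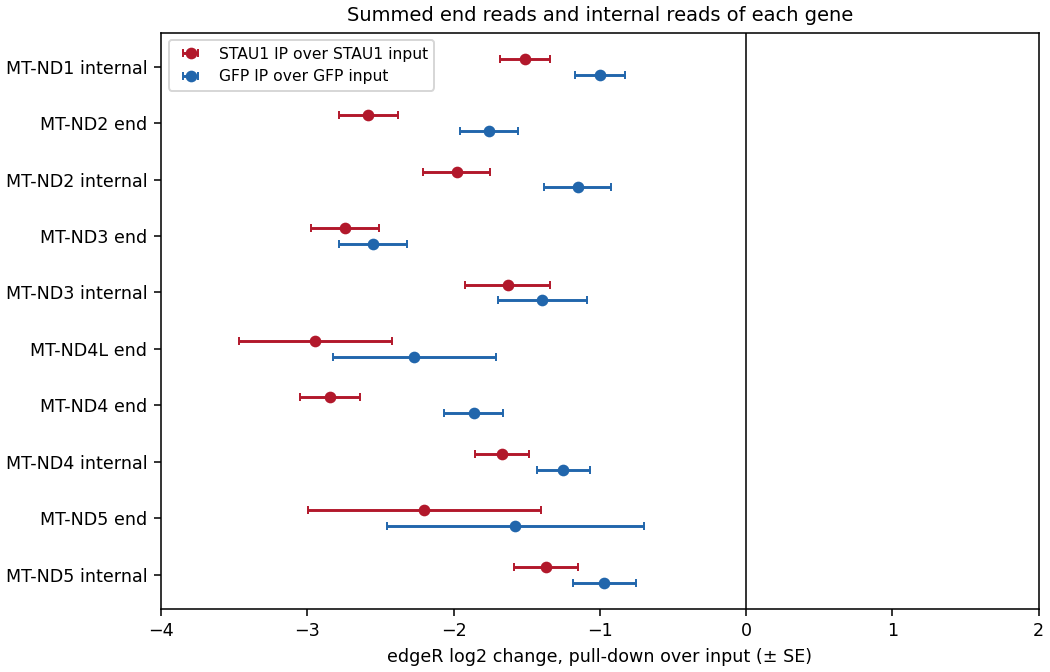
edgeR log2 change of the summed end and internal reads of each gene, pull-down over input, with bars of 1 SE, for STAU1 (red) and GFP (blue). All points lie below 0, and end reads lie further below 0 than internal reads of the same gene.

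On the rest of the same strand the log2 change was also below 0 at most sites, at 258 of 306 for STAU1 and 284 of 306 for GFP. In STAU1 IP, 88 of the 306 other tested sites of the mitochondrial plus strand were lower and 1 was higher, with a median log2 change of −1.40, and in GFP IP 65 were lower and 0 higher, with a median of −1.55. Sites called lower in STAU1 IP numbered 10 of 29 in MT-CO1, 3 of 16 in MT-CO2, 5 of 13 in MT-ATP8 with MT-ATP6, 5 of 17 in MT-CO3 and 9 of 26 in MT-CYB, and 14 of 22 and 35 of 47 in the ribosomal RNAs MT-RNR1 and MT-RNR2. In GFP IP the numbers were 8, 2, 1, 3, 3, 10 and 22 in the same order. Of the 136 other sites, outside all of these genes, 7 were lower and 1 was higher in STAU1 IP, with a median of −0.69, and 16 were lower in GFP IP, with a median of −2.16. End reads of MT-CYB, a subunit of complex III, changed by −3.13 ± 0.23 in STAU1 IP and −2.25 ± 0.23 in GFP IP, and those of MT-CO3, a subunit of complex IV, by −1.74 ± 0.14 and −1.42 ± 0.14, all past the test.

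Of all mitochondrial plus-strand reads, the complex I sites took 9.18% and 10.6% in STAU1 IP, against 20.4% and 17.5% in STAU1 input, and 14.6% and 18.5% in GFP IP, against 17.9% and 18.8% in GFP input. STAU1 IP lay below its input in both libraries, while the GFP IP values overlapped those of their input. Pull-downs and inputs differed by −5.45 percentage points, which did not pass the test (exact permutation test over 4 against 4 libraries, two-sided p = 0.0857). Within a tag, an exact permutation test of 2 against 2 libraries cannot go below p = 0.333.

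Whether the fall differed between STAU1 and GFP was tested directly as the double ratio, the log2 change of STAU1 IP over its input minus that of GFP IP over its input. No complex I site passed it in either direction, against 0.688% of all tested sites. An edgeR unadjusted p under 0.05 was found at 20 of the 135, and at 3756 of all 33744 sites. DESeq2 called 3 of the 135, all lower, and of all 33744 sites it called 316 lower and 425 higher. The median double ratio was −0.32 at complex I sites and 0.30 at all sites, and with scaling by totals −0.49 and 0.14. At the ends it was −0.95 ± 0.27 at site 12138 (edgeR adjusted p = 0.137), −0.80 ± 0.27 at site 5512 (adjusted p = 0.233) and −0.17 ± 0.32 at site 10405 (adjusted p = 0.915). DESeq2 gave an adjusted p of 0.00209 at site 12138 and 0.00831 at site 5512. Of the sums, the end reads of MT-ND4 came nearest to the threshold (−0.98 ± 0.27, edgeR adjusted p = 0.117), and their adjusted p was 0.0499 with scaling by totals and 0.0481 without STAU1 input replicate 2.

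The inputs of the 2 transfections did not differ detectably at these sites. In STAU1 input over GFP input, 0 of the 135 sites passed edgeR's test, against 0.00889% of all sites. DESeq2 called 0 of them, against 10 of all 33744 sites. An edgeR unadjusted p under 0.05 was found at 3 of the 135 sites and at 1355 of all sites. The largest difference at an end was at site 10405 of MT-ND3, with a log2 change of −0.59 ± 0.22 (edgeR unadjusted p = 0.0148, adjusted p = 1).

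The share of a gene's reads that ended at the coding end was taken next, because a share within a gene does not depend on library scaling. It was lower in the pull-downs than in the inputs in the 4 genes examined, MT-ND2, MT-ND3, MT-ND4 and MT-ND5. In MT-ND5, whose messenger continues past the stop codon, the share covers the coding end and leaves out site chrM:14746. The MT-ND4L end, which lies inside the joint messenger, was counted with the other reads of the MT-ND4 window and has no share of its own. For MT-ND4 it was 70.1% and 69.1% in STAU1 IP, against 85.3% and 81.3% in STAU1 input, and 73.4% and 73.6% in GFP IP, against 79.4% and 81.7% in GFP input. For MT-ND2 it was 80.9% and 82.9% in STAU1 IP, against 88.7% and 85.8% in STAU1 input, and 83.4% and 83.7% in GFP IP, against 89.7% and 87.4% in GFP input. In both genes every pull-down library lay below every input library.

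MT-ND3 varied more. Its end share was 60.7% and 82.6% in STAU1 IP, against 82.7% and 87.0% in STAU1 input, and 72.8% and 81.2% in GFP IP, against 89.1% and 86.9% in GFP input, so that the second STAU1 IP library came within counting error of the lowest input. In MT-ND5 the share was 0.637% and 1.08% in STAU1 IP, against 1.85% and 1.38% in STAU1 input, and 0.562% and 0.975% in GFP IP, against 1.32% and 1.15% in GFP input, from 2 to 16 end reads per pull-down library.

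Over the 4 pull-downs and the 4 inputs, the end share averaged 82.7 ± 1.3% and 87.9 ± 1.7% in MT-ND2, 74.3 ± 10.1% and 86.4 ± 2.7% in MT-ND3, 71.6 ± 2.3% and 81.9 ± 2.4% in MT-ND4 and 0.81 ± 0.25% and 1.43 ± 0.30% in MT-ND5 (SD, n = 4 each). The values did not overlap in any of these genes, and each exact permutation test gave a two-sided p of 0.0286, which is also the value adjusted over the 4 genes and the smallest the design allows. The differences were −5.16 percentage points in MT-ND2, −12.1 in MT-ND3, −10.3 in MT-ND4 and −0.61 in MT-ND5. Leaving out STAU1 IP replicate 1 brought the MT-ND3 difference to −7.58. These pull-downs hold both tags. Within STAU1 the mean difference in MT-ND4 was −13.6 points and within GFP −7.06, and the difference between the 2 pull-downs could not pass a test of 2 against 2 libraries.

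**Figure D3:**
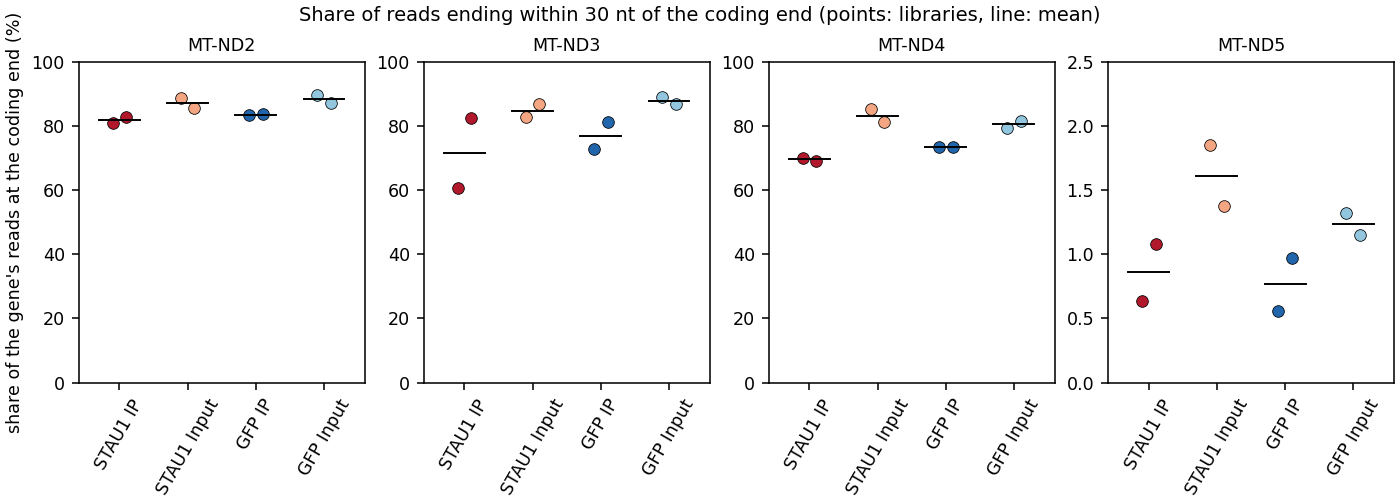
Share of each gene's reads (%) that ended within 30 nt of the coding end, by group, with 1 point per library and a line at the mean of 2. The axis of MT-ND5 ends at 2.5%. In each gene the 4 pull-down points lie below the 4 input points.

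Along the coding regions the change in the pull-downs varied less in the pooled reads than within single genes. Internal reads of all genes together changed by −1.69, −1.61 and −1.47 (difference of mean log2 CPM) in the 5', middle and 3' segments of the coding regions, each cut into 3 equal segments, in STAU1 IP over STAU1 input, and by −1.28, −1.25 and −1.05 in GFP IP over GFP input. Over the pairings of single pull-down and input libraries the change in the 3' segment lay between −1.70 and −1.25 for STAU1 and between −1.37 and −0.72 for GFP, which overlaps the range of the 5' segment (−1.82 to −1.56 and −1.43 to −1.13). In MT-ND1 these ranges did not overlap between the 3' and the 5' segment, with −1.35 to −1.05 against −1.66 to −1.41 for STAU1 and −0.64 to −0.32 against −1.37 to −0.95 for GFP. In MT-ND4 they did not overlap for STAU1 (−1.74 to −1.15 against −1.91 to −1.78) and overlapped for GFP. In MT-ND2 the ranges did not overlap for STAU1 (−1.725 in the 3' segment against −2.237 in the 5' segment) and overlapped for GFP. In MT-ND3 the 3' segment was lower than the 5' segment for STAU1 (−2.472 against −1.931) and higher for GFP, with overlapping ranges. In MT-ND5 the middle segment gave −0.70 for STAU1, against −1.52 in the 5' segment and −1.551 in the 3' segment, with overlapping ranges. In MT-ND1 the middle segment was the lowest with both tags, at −1.775 for STAU1 and −1.599 for GFP. The split into segments was chosen after the data had been seen.

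In the fractions, complex I reads were lower in polysomes than in the cytoplasm, in both genotypes. Polysome profiling is a sedimentation used to collect RNA on cytosolic ribosomes, whereas these messengers are translated in mitochondria. In the knockout, complex I members took 0.441% of the reads in polysomes and 2.19% in the cytoplasm, and in the wild type 0.654% in polysomes and 2.11% in the cytoplasm. All members together gave a log2 ratio of polysome to cytoplasm, scaled by TMM, of −2.50 in the knockout (95% counting interval −2.53 to −2.48) and −1.94 in the wild type (−1.96 to −1.91). With 1 library per group these intervals cover counting error only, no test was made, and PCR reads are not independent molecules.

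Only 6 of the 134 members had at least 50 reads in each of the 4 libraries. Of these, 5 were more than 2-fold lower in polysomes in the knockout, where 4.66% of all 4766 such sites were, and 4 in the wild type, where 5.69% were. Their median log2 ratio was −2.29 in the knockout and −1.78 in the wild type, against 0.01 and −0.01 for all sites. The 33 other plus-strand mitochondrial sites had medians of −1.92 and −1.47.

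The ends of MT-ND2, MT-ND3 and MT-ND4 were all depleted in polysomes. For MT-ND4, 7467 reads in knockout polysomes stood against 34662 in knockout cytoplasm (log2 ratio −2.52), and 9707 in wild-type polysomes against 25607 in wild-type cytoplasm (−1.59). For MT-ND2, 2436 reads stood against 10225 in the knockout (−2.37), and 3142 against 10794 in the wild type (−1.98). For MT-ND3, 3444 reads stood against 12954 in the knockout (−2.21), and 3253 against 12789 in the wild type (−2.17). The genotypes lay furthest apart at MT-ND4 and closest at MT-ND3.

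In MT-ND2, MT-ND3 and MT-ND4 the internal reads were lower in polysomes, relative to cytoplasm, than the end reads. The internal reads of MT-ND4 gave −3.58 in the knockout (−3.70 to −3.47) and −3.24 in the wild type (−3.35 to −3.13). Those of MT-ND1 gave −4.04 (−4.24 to −3.84) and −3.99 (−4.21 to −3.78), those of MT-ND2 −3.26 and −2.80, and those of MT-ND3 −4.58 and −3.80, from as few as 14 reads in knockout polysomes. The few reads at the MT-ND4L end did not follow this order: 25 reads in knockout polysomes stood against 306 in knockout cytoplasm (−3.92, interval −4.57 to −3.33), and 20 in wild-type polysomes against 193 in wild-type cytoplasm (−3.47, interval −4.21 to −2.80), which overlaps the internal reads of MT-ND4. The end share of MT-ND4 was accordingly 91.3% in knockout polysomes (95% Wilson interval 90.7 to 91.9) and 83.3% in knockout cytoplasm (82.9 to 83.6), and 92.7% in wild-type polysomes (92.2 to 93.2) and 80.1% in wild-type cytoplasm (79.7 to 80.5). In MT-ND3 it was 99.6% in knockout polysomes and 98.0% in knockout cytoplasm, and 99.1% in wild-type polysomes and 97.1% in wild-type cytoplasm.

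MT-ND5 stood apart from the other members. Its internal reads had a log2 ratio of −1.42 in the knockout (−1.53 to −1.31) and −1.15 in the wild type (−1.25 to −1.04), the mildest depletion of internal reads among the complex I genes. Outside complex I the depletion was as mild in MT-CYB, with −1.18 and −1.08 for internal reads and −0.54 and −0.67 for end reads. The site near the coding end of MT-ND5 (chrM:14164 in this table) gave −0.53 and −0.41, with intervals from −1.40 to 0.32 and from −1.37 to 0.55 that include 0. The site beyond the window, chrM:14746, was higher in polysomes, with 16010 reads in knockout polysomes against 10112 in knockout cytoplasm and 11803 in wild-type polysomes against 7606 in wild-type cytoplasm (log2 ratios 0.36 and 0.44).

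The polysome ratio of internal reads also changed with position. In MT-ND5 the 5' segment of the coding region gave −2.53 in the knockout and −2.56 in the wild type, the middle segment −1.57 and −1.07, and the 3' segment −0.80 and −0.40. In counts, 162 reads in knockout polysomes stood against 761 in knockout cytoplasm in the 5' segment, and 602 against 849 in the 3' segment. In MT-ND4 the values were −4.04 and −4.05 in the 5' segment, −3.55 and −3.15 in the middle segment and −3.19 and −2.62 in the 3' segment. In MT-ND1 the 5' segment gave −4.41 and −4.59, the middle segment −3.51 and −3.77 and the 3' segment −3.49 and −2.78. MT-ND2 and MT-ND3 had fewer internal reads, and in the knockout the intervals of their 5' and 3' segments overlapped.

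Single internal sites showed the same order. Over internal sites with at least 10 reads in each cytoplasm library, the rank correlation of the log2 ratio with position was 0.83 in both genotypes in MT-ND5 (n = 38 sites), 0.50 in the knockout and 0.64 in the wild type in MT-ND4 (n = 37 sites) and 0.40 and 0.55 in MT-ND1 (n = 18 sites). These sites share their libraries and their gene, so the values describe these libraries only. Site 3440 near the start of MT-ND1 had 49 reads in knockout polysomes against 1106 in knockout cytoplasm, and 39 in wild-type polysomes against 1032 in wild-type cytoplasm. Site 13993 near the coding end of MT-ND5 had 231 against 315 reads in the knockout and 290 against 295 in the wild type. The first lay far below the second in both genotypes, but the sites lie in different genes. Gene and position cannot be told apart in this pair.

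**Figure D4:**
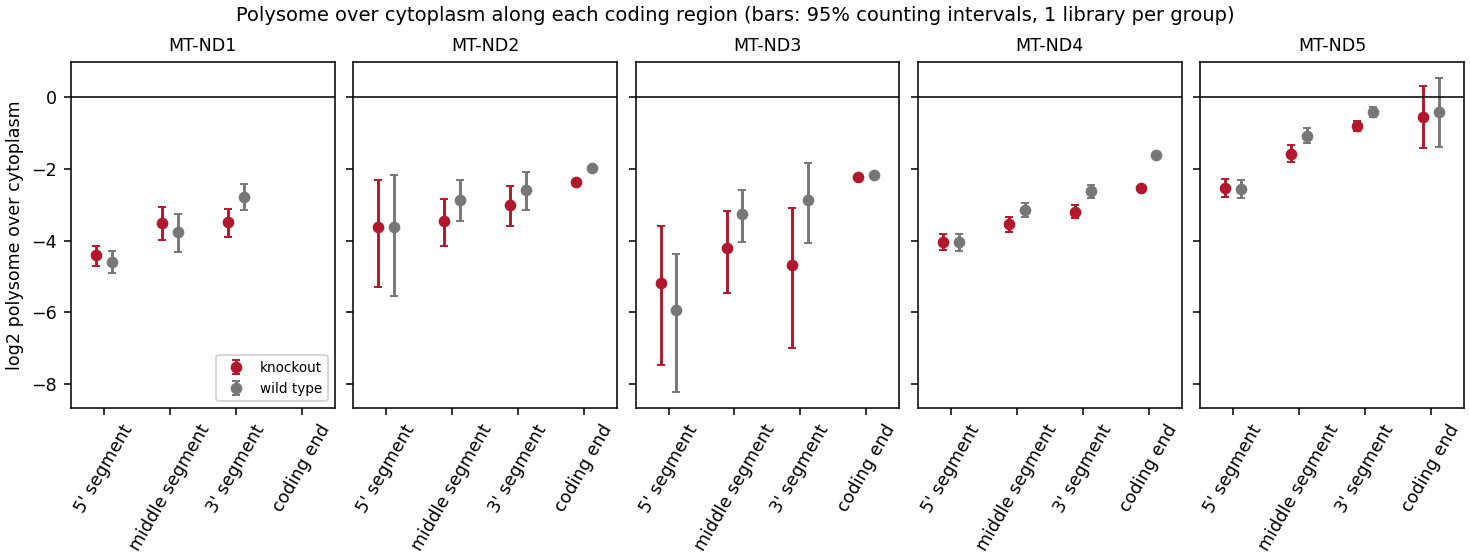
log2 ratio of polysome to cytoplasm, scaled by TMM, of the internal reads in each segment of the coding region and of the reads at the coding end, for knockout (red) and wild type (grey), with 95% counting intervals and 1 library per group. MT-ND1 has no site at its end. MT-ND5 lies nearest to 0, and the 3' segment lies above the 5' segment in each gene, with overlapping intervals in MT-ND2 and, in the knockout, in MT-ND3.

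Between the genotypes, complex I reads differed little in the cytoplasm and were lower in the knockout in polysomes. All members together gave a log2 ratio of knockout over wild type of −0.07 in the cytoplasm, which turned to 0.05 with scaling by totals, and of −0.63 in polysomes (counting interval −0.66 to −0.60). In the cytoplasm 0 of the 6 well-covered members were past 2-fold, where 3.78% of all sites were, and in polysomes 1 was, where 2.2% were. That one was chrM:13008 in MT-ND5, with 52 reads in knockout polysomes against 122 in wild-type polysomes, named after its values were seen. In polysomes the ends of MT-ND2 and MT-ND4 gave −0.75 and −0.76 and that of MT-ND3 −0.30. Internal reads gave −0.62 in MT-ND2, −1.53 in MT-ND3, −0.50 in MT-ND4 and −0.58 in MT-ND5. Counting intervals included 0 for the internal reads of MT-ND1 (−0.19), the MT-ND4L end (−0.06) and the MT-ND5 end (−0.10). The median in polysomes was −0.73 at the 6 members, −0.38 at the 33 other well-covered plus-strand mitochondrial sites and −0.03 at all sites. End reads outside complex I gave −0.91 in MT-ATP8 with MT-ATP6, −0.41 in MT-CYB and −0.09 in MT-CO3. Those of MT-CO2 gave −1.12, from 6 and 10 reads. The ends of MT-RNR1 and MT-RNR2 were higher in the knockout, at 1.36 and 0.64. With 1 library per genotype, a difference between the genotypes and a difference between 2 preparations cannot be told apart.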

How the data were processed

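The submitters' processing notes name STAR and the build hg19; settings, and the rule by which 3' ends were clustered into sites, are not given in the sources used here. For each poly(A) site and library the authors deposited a raw count of reads, with pull-downs and fractions in separate tables, and every per-sample column was used. Coding ends were taken from the textbook map of the mitochondrial chromosome of this build, and an end site lies within 30 nt of one. That of MT-ND4L was instead set from the start of its window, at chrM:10765, and is approximate. No sequence of that chromosome was used here.

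From the counts, edgeR 4.0.16 (quasi-likelihood test, TMM scaling, filterByExpr, 4 groups over 8 libraries, 4 residual degrees of freedom) was fitted to all 33744 sites that passed the filter, with Benjamini-Hochberg adjustment and a threshold of 0.05. The fit was also run on simulated counts with a fixed spread, where changes were placed only in abundant sites. That run does not cover sites with low counts. DESeq2 1.42.0, other scalings, another filter, other end windows, a replicate block and leaving out each library were alternatives. Shares were compared by exact permutation tests over libraries. Fractions have 1 library per group: ratios of TMM-scaled counts carry exact counting intervals and shares Wilson intervals at 95%, both for counting error only. Named sites were, per gene and table, the end site and the internal site with the most reads, and per contrast the called sites with the largest and smallest log2 change at an average log2 CPM of at least 4. The members, lists and tests were chosen with earlier results of these data known. The labels number replicates without saying whether they are separate cultures, so p-values measure the spread between these samples, which may be technical.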

Additional observations from a re-analysis of the deposited data

How the results depend on the processing

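No complex I site was called higher in either pull-down under any scaling, filter or test tried, except 2 in STAU1 IP without STAU1 input replicate 2. The number of sites called ranged from 30 to 50 in STAU1 IP over STAU1 input, from 5 to 35 in GFP IP over GFP input and from 0 to 3 in the double ratio when single libraries were left out. In STAU1 IP the lowest number, 30, came without STAU1 IP replicate 1. GFP IP over GFP input gave 11 calls with scaling by totals and 42 with a filter of 10 reads in all, and the double ratio gave 3 with DESeq2. Calls among all sites moved as well. In GFP IP over GFP input, 1348 of all 33744 sites were called lower, against 751 with scaling by totals. With the filter of 10 reads in all, 1958 of 85917 sites were. Leaving out single libraries also changed the calls among all sites. Without STAU1 input replicate 2, more of all sites were called higher in STAU1 IP. Whether complex I calls moved more than those of all sites was not tested, nor was the cause.

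With 3 against 4 libraries the exact permutation test of the end share cannot go below p = 0.0571, so leaving out a library could not keep the call. The difference then lay between −5.84 and −4.55 percentage points in MT-ND2, −14.9 and −7.58 in MT-ND3, −11.2 and −9.23 in MT-ND4 and −0.70 and −0.47 in MT-ND5. Ends within 60 nt gave −0.27 in MT-ND5 (exact permutation p = 0.229). The share of plus-strand reads differed by −7.21 to −4.11 points.

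Same-numbered samples did not deviate together (correlation of deviations −0.042 for STAU1 and 0.039 for GFP over 6218 sites), and the labels do not say that numbers pair samples. With the replicate block, 56 sites were called in STAU1 IP, 34 in GFP IP and 2 in the double ratio, all lower. Of all 33744 sites, 1192, 1605 and 123 were then called lower in the same order, and 1308, 839 and 389 higher. The edgeR adjusted p of the double ratio was 0.0174 at site 12138 and 0.00661 for the end reads of MT-ND4. In GFP IP the block gave 0.0161 at site 13993, 0.0337 at site 10236, 0.0354 at site 11411 and 0.0469 at site 11679, none of which passed without it. Paired by number, the end share differed by −5.16 points in MT-ND2, −12.1 in MT-ND3, −10.3 in MT-ND4 and −0.61 in MT-ND5, with p = 0.125, the smallest that exact sign flips over 4 pairs allow.

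Scaling by totals moved the fraction ratios of all complex I reads to −2.31 (knockout) and −1.69 (wild type) for polysome over cytoplasm, and to 0.051 (cytoplasm) and −0.57 (polysome) for knockout over wild type, where the median of all sites moved to 0.21, 0.24, 0.08 and 0.03.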
